A study of Homo sapiens
Mus musculus with 5 samples.

Results

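The AP-1 and immediate early genes described here are FOS, FOSB, FOSL1, JUN, JUNB, JUND, EGR1, ATF3, DUSP1 and NR4A1, read as cancer-cell genes in a human table and, under the same symbols, as host genes in a mouse table of the same libraries. They were chosen by symbol, 10 of 25524 human genes and 10 of 24628 mouse genes, and each symbol matched 1 gene in each table. All 10 human and all 10 mouse genes passed the filter for testing, an RPKM of at least 1 in at least 2 libraries. RPKM is a level scaled to gene length and to the number of reads of the library. The tumors came from H2030-BrM3, an established brain-metastatic derivative of a human lung adenocarcinoma line, grown in mice of the athymic nu/nu strain, animals without a thymus and so without most T cells. The groups were 3 brain tumors and 2 orthotopic lung tumors, the latter seeded through the trachea, and every tumor shared the cell line and the mouse strain. The labels give neither the seeding of the brain tumors nor the age of the mice, and no tumor-free brain or lung is among the samples analysed here. A mouse gene that differs between the groups therefore differs between brain and lung as organs as well as between the tumors in them.

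AP-1 is a family of transcription factors that bind DNA as pairs, either of JUN proteins with each other or of a JUN protein with a FOS protein, held together by a leucine zipper. Growth factors, cytokines and stress act through MAP kinases on factors such as SRF and ELK1 that are already bound at the promoters of FOS, EGR1 and related genes, so that these are transcribed within minutes without new protein synthesis. The burst is brief, since the messenger RNAs are unstable and since products such as the phosphatase DUSP1 shut off the kinases. In the brain the same genes mark neurons that have recently been active, and in carcinoma cells FOSL1 and JUN are known for roles in invasion. Because the genes answer within minutes, handling of tissue before RNA extraction is also known to move them.

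Human reads recovered from the RPKM numbered 2445904 to 8419288 per library and mouse reads 231156 to 8636094, with the lowest mouse depth in lung tumor 1, where 96.6% of reads were human. The mouse RNA carried brain markers in the brain tumors, with summed RPKM of 2080 to 2870 for 7 neuron markers and 13013 to 14696 for 6 astrocyte markers, against 38.0 to 62.5 and 134 to 211 in the lung tumors. The lung tumors differed from each other. Markers of the alveolar epithelium (6 genes, among them the surfactant gene Sftpc) summed to 268 RPKM in lung tumor 1 and 20407 in lung tumor 2, against 34.8 to 46.2 in the brain tumors. Fibroblast and smooth muscle markers (7 genes) summed to 13165 and 6458 RPKM in lung tumors 1 and 2 and to 161 to 681 in the brain tumors, and neutrophil markers (5 genes) to 527 and 368 against 5.23 to 9.19. Their part in the mouse results below was not tested. Whether each tumor came from its own mouse is not in the labels, and p-values here cover only the spread among these libraries.

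In the cancer cells, 9 of the 10 genes had a negative log2 fold change, brain against lung, as did 44.4% of tested human genes, and 0 of the 10 passed the test. With limma on log2(RPKM + 1), 0.00693% of 14423 tested human genes were called at an adjusted p under 0.05, so the fit called almost nothing of any kind. At an unadjusted p under 0.05 there were 4 of the 10 genes, FOSL1, JUNB, FOS and NR4A1. Of tested human genes 10.5% were under it in either direction and 4.36% were under it and lower in the brain tumors. Voom on the recovered reads called 0 of 14423 tested human genes, so its 0 of the 10 adds nothing about these genes. Every brain tumor lay below both lung tumors for 5 of the 10 genes, FOS, FOSB, FOSL1, JUNB and NR4A1, against 12.3% of tested human genes. The median log2 fold change of the 10 was -1.15, beside 0.09 for all tested human genes. The genes were chosen with earlier results of these data known, so these counts describe the 10 genes and do not test them as a list.

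**Figure D1:**
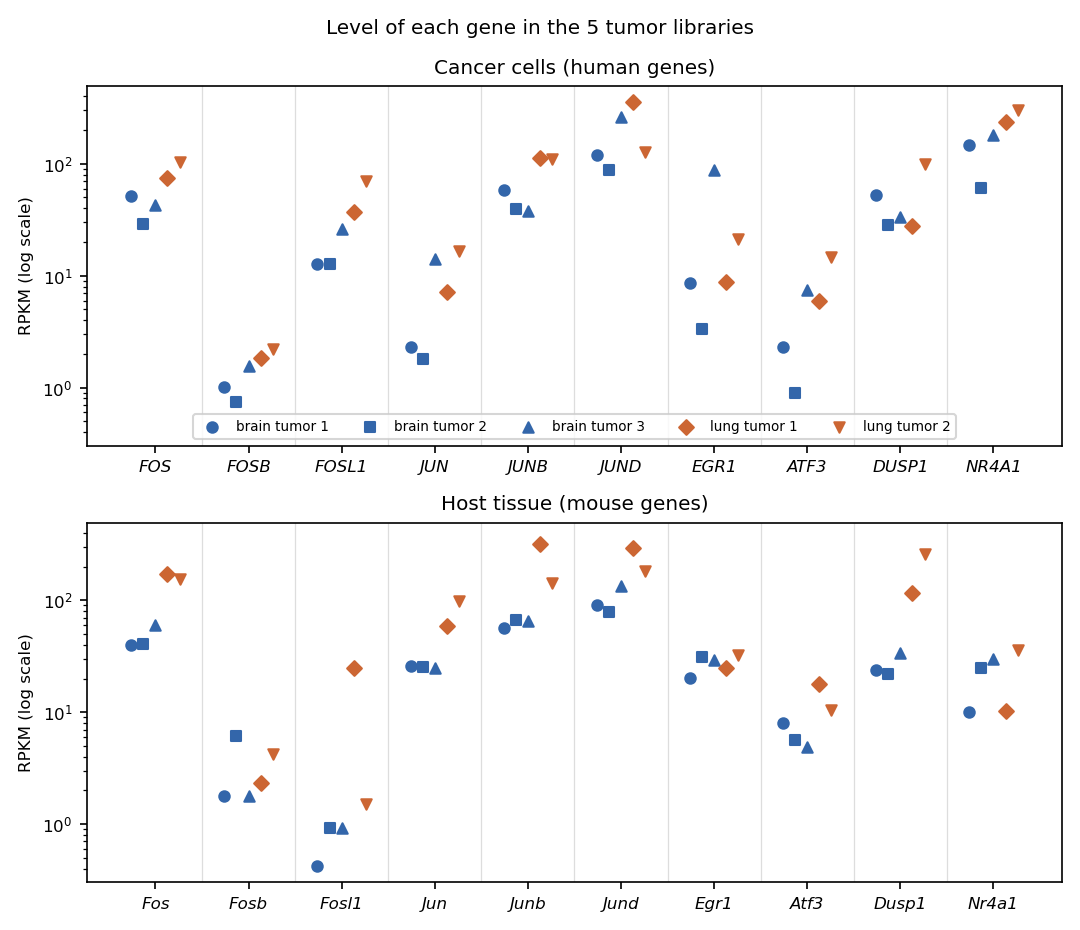
RPKM on a log axis of the 10 genes in the 5 libraries, with human genes in the upper and mouse genes in the lower panel, blue for brain tumors and orange for lung tumors. In the upper panel the 3 brain tumors lie below both lung tumors for FOS, FOSB, FOSL1, JUNB and NR4A1, and EGR1 at 87.9 RPKM in brain tumor 3 lies above all other libraries. In the lower panel the groups are apart for 7 genes and overlap for Fosb, Egr1 and Nr4a1.

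Among the FOS proteins, the partners that bind DNA only together with a JUN protein, FOS itself (ENSG00000170345.9, chromosome 14 from 75278828 to 75282230 in GRCh38, protein-coding) had 51.1, 29.1 and 43.2 RPKM in brain tumors 1, 2 and 3, against 74.9 and 103 RPKM in lung tumors 1 and 2. These levels rested on 360, 156 and 88 human reads and on 408 and 323. The brain tumors averaged 41.2 ± 11.1 RPKM (SD, n = 3) against 89.1 ± 20.0 (n = 2), and the fitted log2 difference was -1.11 (SE 0.37, limma adjusted p = 0.457). FOSL1, also called FRA1, which lacks the strong activation domain of FOS (ENSG00000175592.8, chromosome 11 from 65892049 to 65900545), had 12.7, 12.7 and 26.0 RPKM in brain against 37.3 and 69.9 in lung tumors. Its value of -1.60 on the log2 scale (SE 0.46, limma adjusted p = 0.433) was the largest in size of the 10 human genes. FOSB, a close relative of FOS (ENSG00000125740.13, chromosome 19 from 45467996 to 45475179), was low everywhere, with 1.01, 0.739 and 1.55 RPKM against 1.84 and 2.19, on 12 to 38 reads per library. Its log2 fold change was -0.54 (SE 0.42, limma adjusted p = 0.619). In all 3 genes the lowest lung tumor stood above the highest brain tumor, by a narrow margin for FOSB.

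The JUN proteins, which can pair with each other or with FOS proteins, differed in their patterns. JUNB, often a brake on JUN (ENSG00000171223.5, chromosome 19 from 12791486 to 12793315), had 58.7, 39.5 and 38.2 RPKM in brain against 112 and 109 in lung tumors. The lung tumors were close to each other and apart from the brain tumors, with -1.29 on the log2 scale (SE 0.34, limma adjusted p = 0.389). JUN, the founding member (ENSG00000177606.6, chromosome 1 from 58780791 to 58784047), had 2.32, 1.81 and 14.2 RPKM against 7.19 and 16.6, so that brain tumor 3 lay between the lung tumors and the groups overlapped (log2 fold change -1.20, SE 0.76, limma adjusted p = 0.554). JUND, the member present in resting cells (ENSG00000130522.5, chromosome 19 from 18279694 to 18281622), had 119, 87.6 and 259.6 RPKM against 354 and 127. Here brain tumor 3 lay above lung tumor 2, and the log2 fold change was -0.60 (SE 0.57, limma adjusted p = 0.680). Without lung tumor 1 the JUND value was 0.13 (adjusted p = 0.958).

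NR4A1, an orphan nuclear receptor also called NUR77 (ENSG00000123358.19, chromosome 12 from 52022832 to 52059503), had 148, 60.7 and 179 RPKM in brain against 235 and 304 in lung tumors. Both lung tumors were above every brain tumor, with -1.18 on the log2 scale (SE 0.48, limma adjusted p = 0.473). ATF3, a stress-induced factor that pairs with JUN proteins (ENSG00000162772.16, chromosome 1 from 212565407 to 212620777), had 2.29, 0.887 and 7.46 RPKM against 5.93 and 14.6, on 5 to 48 reads per library (log2 fold change -1.47, SE 0.68, limma adjusted p = 0.483). Brain tumor 3 lay above lung tumor 1, so the groups overlapped. EGR1, a zinc finger factor induced through SRF (ENSG00000120738.7, chromosome 5 from 138465479 to 138469303), had 8.63, 3.35 and 87.9 RPKM against 8.82 and 21.3. The log2 fold change was 0.07 (SE 1.10, 95% interval -2.46 to 2.59, limma adjusted p = 0.985), and without brain tumor 3 the value was -1.19 (adjusted p = 0.683). DUSP1, which removes phosphate from MAP kinases (ENSG00000120129.5, chromosome 5 from 172768096 to 172771195), had 52.5, 28.3 and 33.7 RPKM against 27.7 and 100.3. The lung tumors held both the lowest and the highest value of the 5 libraries (log2 fold change -0.51, SE 0.55, limma adjusted p = 0.723), and without lung tumor 2 the value was 0.40 (adjusted p = 0.530).

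In the host, 4 of the 10 genes fell in the brain tumors relative to the lung tumors, Dusp1, Fos, Junb and Jun, and 0 rose. Of 15431 tested mouse genes 8.12% fell and 14.3% rose by the same rule, and 22.4% were called in either direction. Every brain tumor lay below both lung tumors for 7 of the 10 genes, against 26.2% of tested mouse genes, and 9 of the 10 had a negative log2 fold change, against 47.5%. The median of the 10 was -1.39, beside 0.08 for all tested mouse genes. In bulk tissue, fewer cells of a type and less RNA per cell cannot be told apart, and these host differences go with the organ differences given above.

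Dusp1 (ENSMUSG00000024190.6) had the largest fitted log2 difference among the 10 host genes, although on the means Fosl1, whose lung tumor 1 value rests on 5 reads, was 17.2-fold higher in the lung tumors. The level of Dusp1 was 23.7, 22.0 and 34.1 RPKM in brain against 116 and 261 RPKM in lung tumors, on 131, 220 and 599 mouse reads and on 55 and 2811. The means were 26.6 ± 6.55 RPKM (SD, n = 3) and 189 ± 102 (n = 2), 7.09-fold higher in the lung tumors, and the log2 fold change was -2.69 (SE 0.44, limma adjusted p = 0.0107). Both lung tumors stood far above every brain tumor, though they differed from each other. Fos (ENSMUSG00000021250.13) had 40.3, 40.6 and 60.1 RPKM in brain against 171 and 154 in lung tumors. That is 3.46-fold higher in the lung tumors on the means, and -1.79 on the log2 scale (SE 0.31, limma adjusted p = 0.0130).

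Jun (ENSMUSG00000052684.4) was nearly constant over the brain tumors, at 25.8, 25.3 and 24.9 RPKM, and had 59.5 and 99.1 RPKM in the lung tumors (log2 fold change -1.56, SE 0.33, limma adjusted p = 0.0243). Junb (ENSMUSG00000052837.6) had 56.1, 66.1 and 65.9 RPKM against 319 and 143 (log2 fold change -1.76, SE 0.41, limma adjusted p = 0.0308). For both genes the gap between the groups was wider than the spread within the brain tumors, while the lung tumors were unlike each other. These calls depended on the brain tumors available. Without brain tumor 1 the adjusted p was 0.0555 for Dusp1, 0.0695 for Fos, 0.0957 for Jun and 0.117 for Junb, and without brain tumor 2 it was 0.0630, 0.0838, 0.113 and 0.119, so that 0 of the 10 passed. Without brain tumor 3 Dusp1 and Fos passed, while Jun had 0.0955 and Junb 0.113. Calls over all tested mouse genes were fewer too, at 1518, 1195 and 1294 without brain tumor 1, 2 and 3, against 3457 in the main fit. Without lung tumor 1, the shallow library, the median log2 fold change of the 10 was -0.86, and without lung tumor 2 it was -1.49. In either fit 1 lung tumor remains, and the spread comes from the brain tumors alone.

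The other 6 host genes did not pass. Jund had 90.5, 77.8 and 134 RPKM in the brain and 293 and 182 in the lung tumors (log2 fold change -1.23, SE 0.38, limma adjusted p = 0.0699). Atf3 had 7.94, 5.64 and 4.88 RPKM against 17.7 and 10.5 (log2 fold change -1.06, SE 0.43, limma adjusted p = 0.131), the value of lung tumor 1 resting on 4 reads. For both genes the groups did not overlap. Fosl1 stood at 0.422, 0.933 and 0.930 RPKM in brain against 24.7 and 1.52 in lung tumors (log2 fold change -2.20, SE 0.97, limma adjusted p = 0.155). The value of lung tumor 1 rested on 5 mouse reads, beside 299 human FOSL1 reads in that library, or 1.67 mouse reads per 100 human reads, while the other libraries had 0.758 to 8.97. Without lung tumor 1 the log2 fold change of Fosl1 was -0.53 (adjusted p = 0.316).

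Egr1, Nr4a1 and Fosb overlapped between the groups. Egr1 had 20.1, 31.3 and 29.2 RPKM in the brain and 24.7 and 32.6 in the lung tumors, and its log2 fold change was -0.10 with an interval from -0.96 to 0.76 (95%, limma adjusted p = 0.859). Nr4a1 had 10.1, 25.02 and 29.9 RPKM against 10.2 and 36.2 (log2 fold change 0.02, SE 0.69, limma adjusted p = 0.987). Its lowest values were in brain tumor 1 and lung tumor 1. Fosb had 1.79, 6.09 and 1.78 RPKM against 2.32 and 4.23 (log2 fold change -0.13, SE 0.58, limma adjusted p = 0.885), with its highest value in brain tumor 2 and 2 reads in lung tumor 1.

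**Figure D2:**
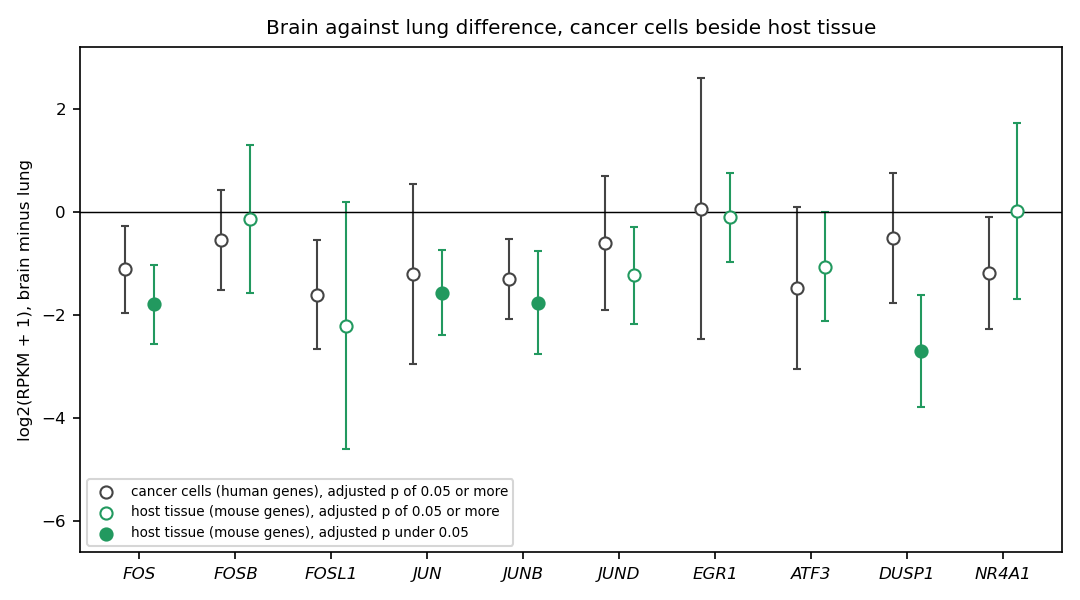
Log2 fold change of each gene, brain minus lung on the log2(RPKM + 1) scale, with its 95% interval from the limma fit, for cancer cells (grey) and host tissue (green). Filled points mark an adjusted p under 0.05, reached by the mouse genes Fos, Jun, Junb and Dusp1. Human DUSP1 at -0.51 and mouse Dusp1 at -2.69 are the pair furthest apart.

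Since both tables come from the same libraries, the difference between the cancer-cell and the host response was tested directly. The log2 ratio of the human to the mouse level was taken in each library for 10189 same-symbol pairs, and limma compared that ratio between brain and lung tumors. Of the 10 pairs 1 passed, DUSP1, against 16.3% of all pairs in either direction, so the count of 1 in 10 is not above the background. The human to mouse log2 ratio of DUSP1 was 1.11, 0.35 and -0.02 in brain tumors 1, 2 and 3, against -2.03 and -1.37 in lung tumors 1 and 2. The groups did not overlap, and the ratio was higher in the brain tumors by 2.18 (SE 0.44, 95% interval 1.15 to 3.21, limma adjusted p = 0.0197). With each species scaled to its own reads, the cancer-cell level was above the host level in brain tumors 1 and 2, about equal to it in brain tumor 3 and below it in both lung tumors. The adjusted p was 0.0556 without brain tumor 1, 0.0623 without brain tumor 2 and 0.0539 without brain tumor 3, and the difference stayed between 1.85 and 2.51 over 15 alternatives.

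For the other 9 pairs the test did not separate the responses. FOS differed by 0.68 (95% interval -0.24 to 1.60, limma adjusted p = 0.269) and JUND by 0.62 (-0.27 to 1.52, adjusted p = 0.295), and both intervals held 0 and values above 1. JUNB differed by 0.46 (-0.60 to 1.52, adjusted p = 0.508). NR4A1 had the most negative value, -1.20 (-2.96 to 0.56, adjusted p = 0.306), from -1.18 in the human and 0.02 in the mouse gene. The intervals of JUN, EGR1, ATF3, FOSB and FOSL1 ran from -2.57 at the lowest to 3.30 at the highest. FOSL1 passed without lung tumor 2, at 2.73 (adjusted p = 0.0135), and had -1.52 (adjusted p = 0.128) without lung tumor 1, so its sign turned on which lung tumor was kept.

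The 3 brain tumors were not alike in the cancer cells. Human EGR1 was 87.9 RPKM in brain tumor 3 on 690 reads, against 8.63 and 3.35 RPKM in brain tumors 1 and 2 on 234 and 69 reads. On the log2(RPKM + 1) scale brain tumor 3 stood 3.78 above the mean of the other 2, and 1 of 14423 tested human genes, the mitochondrial transfer RNA gene MT-TT, had a larger difference. JUN stood 2.32 higher in brain tumor 3, ATF3 1.76, JUND 1.34, FOSL1 0.98 and NR4A1 0.91, while FOS stood at 0.16, DUSP1 at -0.19 and JUNB at -0.33. The median over the 10 genes was 0.94, beside -0.06 over all tested human genes. Brain tumor 2 stood apart in the other direction, since 0 of the 10 genes were higher there than in the mean of brain tumors 1 and 3, with a median of -0.83 beside 0.04. EGR1 stood at -2.75 in that comparison, and 14419 of 14423 tested human genes had a higher value. Both comparisons use the same 3 libraries, each sets 1 library against the other two, and neither has a replicate.

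The host genes of brain tumor 3 had a smaller median difference. Of the 10 mouse genes 7 were higher in brain tumor 3 than in the mean of the other 2, with a median of 0.21 beside -0.12 over all tested mouse genes, and the highest were Nr4a1 at 0.86, Jund at 0.67, Fos at 0.56 and Dusp1 at 0.56. Mouse Egr1 was 29.2 RPKM in brain tumor 3, between the 20.1 and 31.3 RPKM of brain tumors 1 and 2, and mouse Jun was 24.9 against 25.8 and 25.3. Host cell markers moved in the same library. All 7 microglia and macrophage markers were lower in brain tumor 3, with a median of -2.51 and a sum of 94.5 RPKM against 425 and 385, and all 5 endothelial markers were lower, with a median of -0.81 and a sum of 124 RPKM against 288 and 217. Neuron markers went the other way, with 6 of 7 higher and a median of 0.38. Of 10 neuronal activity genes 2 were higher, with a median of -0.41. The part of any of these lists in the host values was not tested. Brain tumor 3 had the lowest share of human reads, 22.1%. Human EGR1 reads per mouse Egr1 read were 0.712 there, 0.117 in brain tumor 2 and 1.11 in brain tumor 1. Among 23 tested human genes of a further list of immediate early genes, 19 were higher in brain tumor 3 than in the mean of the other 2, with a median of 0.31, and 2 were higher in brain tumor 2 than in the mean of brain tumors 1 and 3, with a median of -0.48. Of 16 tested genes reported as AP-1 targets 4 were higher in brain tumor 3, with a median of -0.32, and 4 in brain tumor 2, with a median of -0.17. The matrix proteins CTGF and CYR61 stood 2.52 and 1.89 higher, and BTG2, an inhibitor of proliferation, 2.02. These 3 genes were picked after their values were seen. In the host 17 of 28 further immediate early genes were higher in brain tumor 3, with a median of 0.17. The mouse counterparts Cyr61, Ctgf and Btg2 stood at 3.21, 0.12 and -0.34. For Cyr61, 6 of 15431 tested mouse genes had a larger difference. Of 8 human heat shock genes 1 was higher in brain tumor 3, with a median of -0.56. All 6 lung carcinoma markers were higher there, KRT8 at 1343 RPKM against 428 and 459, and their part in the difference was not tested.

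**Figure D3:**
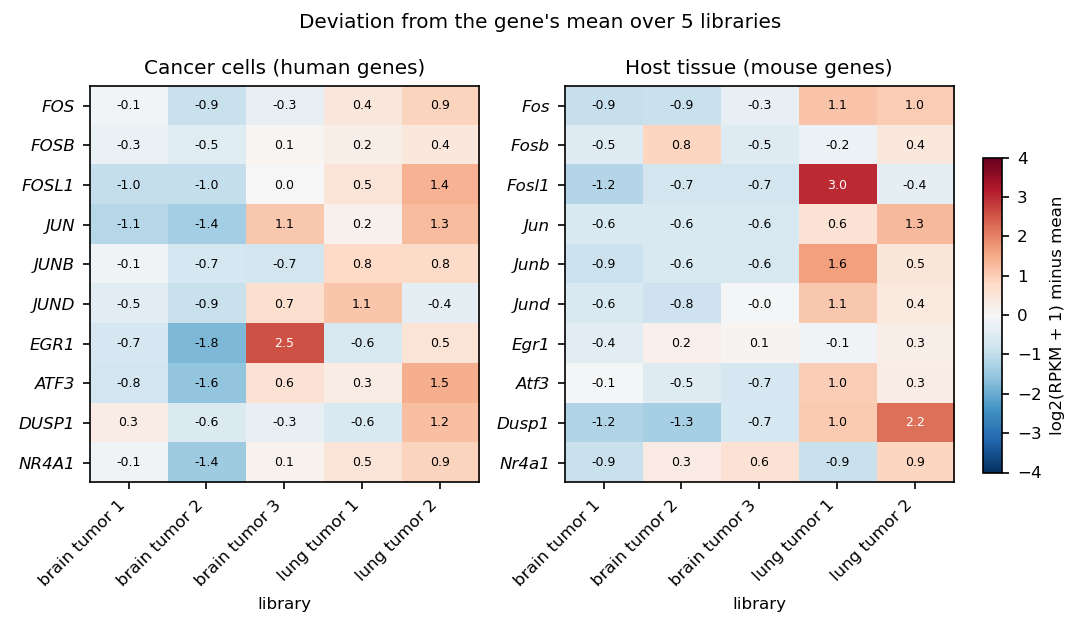
Deviation of log2(RPKM + 1) from the mean of each gene over the 5 libraries, red above and blue below, for human genes (left) and mouse genes (right). Human EGR1 in brain tumor 3 is the darkest red of the left panel. In the right panel Fos, Jun, Junb, Jund, Dusp1 and Atf3 are red in both lung tumors and blue or near 0 in the 3 brain tumors.

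The lung tumors also differed from each other. In the cancer cells 8 of the 10 genes were higher in lung tumor 2, with DUSP1 highest at 1.82 on the log2 scale and EGR1, ATF3 and JUN at 1.18, 1.17 and 1.10, while JUND was lower by 1.47 and JUNB stood at -0.04. The median of all tested human genes for this difference was 0.30. In the host, Nr4a1 was higher in lung tumor 2 by 1.73 and Dusp1 by 1.16. Junb stood lower there, at -1.15, as did Jund at -0.69 and Fosl1 at -3.35. The longest genes (implied length over 1972 bases in human and 3061 in mouse genes) had a median deviation of -0.54 and -0.82 (human and mouse, log2 scale) from their own means in lung tumor 1, and 4 human and 3 mouse genes of the 10 are among them. With each library corrected for gene length the same 4 mouse genes passed and the median of the 10 was -1.17 in human and -1.49 in mouse genes.

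The make-up of the FOS and JUN families was compared as percent of the RPKM summed over a family, with FOSL2, another FOS relative, included. In the cancer cells FOSL2 made up 54.5%, 62.9% and 60.5% of the FOS family in brain against 22.0% and 35.3% in lung tumors. FOSL1 made up 8.92%, 11.1% and 14.5% against 25.5% and 25.8%, and FOS 35.8%, 25.4% and 24.1% against 51.3% and 38.1%. For these 3 genes the shares did not overlap between the groups. Shares of a family have a fixed sum, so these are not 3 separate results, and no background was computed for shares. In the host, Fos was the main member everywhere, at 67.6%, 61.4% and 64.4% in brain against 74.9% and 77.3% in lung tumors, and Fosl2 had 28.7%, 28.0% and 32.7% against 13.3% and 19.8%. Fosl1 was 0.708% to 1.41% of the host family in 4 libraries and 10.8% in lung tumor 1, where it rested on 5 reads. The share of FOSL2 thus stood apart between the groups in both species, while its own level was not separated (log2 fold change 0.60 in human and -0.67 in mouse, limma adjusted p = 0.624 and 0.249).

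JUND was the main JUN gene in every library of the cancer cells, from 50.2% to 83.2% of the family, and JUN the smallest, from 1.29% to 6.55%. In the host Jun took 8.86% to 23.4%, more than in the cancer cells of the same library in all 5. These shares are levels per length as the authors defined length, and they carry no test. Implied lengths were 3640 bases for human and 3257 for mouse JUN genes, but 812 for human NR4A1 and 2527 for mouse Nr4a1, so NR4A1 levels are not set against each other between species.

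**Figure D4:**
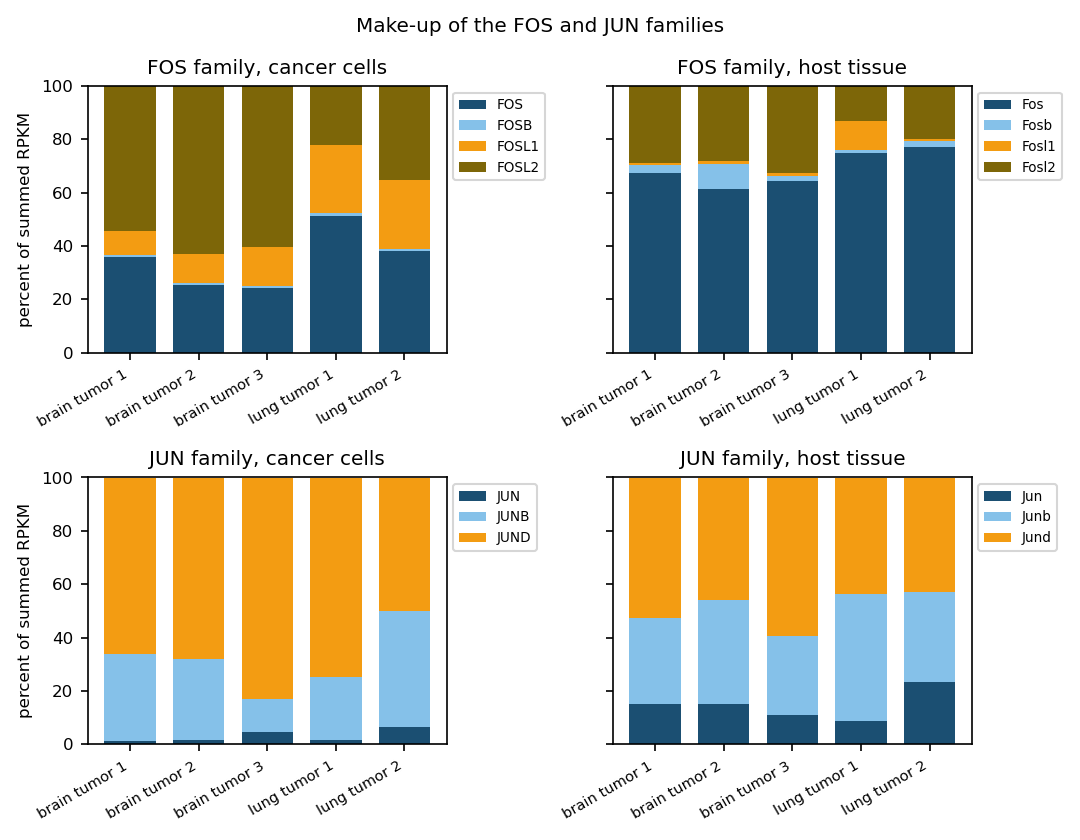
Stacked bars of the percent of summed RPKM that each gene takes within the FOS family (upper row) and the JUN family (lower row), per library, in cancer cells (left) and host tissue (right). FOSL2 takes 54.5% to 62.9% of the cancer-cell FOS family in brain tumors and 22.0% to 35.3% in lung tumors. FOSL1 is visible in the cancer cells of every library and, in the host, mainly in lung tumor 1.

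Other genes of the pathway were read from lists chosen by known role. Of 28 further immediate early genes all were tested in the host, where 9 fell and 3 rose in the brain tumors, with a median log2 fold change of -1.28. Of all tested mouse genes 8.12% fell and 14.3% rose, so the share that fell was above the background and the share that rose was not. Ctgf, which encodes a matrix-associated growth modulator, had 29.2, 23.7 and 28.7 RPKM in brain against 763 and 160 in lung tumors (log2 fold change -3.64, limma adjusted p = 0.0141). The endothelial factor gene Klf2 had 13.3, 14.3 and 8.04 RPKM against 95.8 and 158 (-3.31, adjusted p = 0.00419), and Ier2, a nuclear protein gene, 7.10, 7.32 and 11.8 against 99.7 and 57.8 (-3.01, adjusted p = 0.00607). Arc, which acts at synapses after neuronal activity, went the other way at 10.1, 20.9 and 3.79 RPKM against 0 and 0.545 (3.08, adjusted p = 0.0306). The other two that rose were Egr3 and Egr4, close relatives of Egr1, named here after their values were seen. Egr3 had 6.62, 18.4 and 6.72 RPKM against 0 and 1.70 (2.67, adjusted p = 0.0393). Egr4 had 2.18, 6.86 and 2.96 against 0 and 0.0861 (2.15, adjusted p = 0.0331). Egr2 had 2.40, 5.96 and 0.377 against 18.7 and 32.0 (-3.00, adjusted p = 0.0381), and was also named after its values were seen. The EGR genes of the host thus differed in direction, and Egr1 did not pass. Arc, Vgf, Scg2 and Pcsk1 led a list of 10 neuronal activity genes, 6 of which rose and 0 fell, against 14.3% of tested mouse genes that rose and beside 7 of 7 neuron markers that rose. Without brain tumor 1 or 2 that list gave 4 of 10. Klf2 and Ier2 passed whichever of the 5 libraries was left out. Of 15431 tested mouse genes 1518 were called without brain tumor 1, 1195 without brain tumor 2 and 1294 without brain tumor 3. Of these, 73.8%, 84.7% and 81.1% were higher in the brain tumors. In those fits the list of 28 gave 3, 2 and 4 that fell and 0, 0 and 1 that rose. Without brain tumor 1, 2 and 3 the limma adjusted p of Arc was 0.105, 0.0877 and 0.0412. For Egr3 it was 0.0971, 0.123 and 0.109, and for Egr4 0.0648, 0.0820 and 0.0994. Egr2 had 0.118, 0.0556 and 0.0902, so Egr2, Egr3 and Egr4 did not pass in these fits.

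Among the same further immediate early genes 23 of 28 were tested in the cancer cells. By limma 0 passed, against 0.00693% of all tested human genes, so 0 called says little about any list. At an unadjusted p under 0.05 there were 3, near the 10.5% of all tested human genes. Of these 23 genes 18 had a negative log2 fold change, against 44.4% of all tested human genes, and the median was -0.36. The most abundant were MCL1, a survival gene, at 151, 129 and 210.1 RPKM in the brain and 107 and 397 in the lung tumors, and CTGF at 66.6, 84.6 and 435 against 116 and 128. Both overlapped between the groups. EGR2, EGR3 and EGR4 were at or under 1.01 RPKM in every library of the cancer cells, unlike EGR1.

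Other AP-1 and partner factors of the leucine zipper class, 12 genes, gave 2 that fell and 0 that rose in the host, Batf2 and Batf, which act mainly in immune cells. Of all tested mouse genes 8.12% fell. Batf2 had 1.24, 1.60 and 0.389 RPKM in the brain and 14.5 and 9.31 in the lung tumors (log2 fold change -2.66, limma adjusted p = 0.0139), and Batf had 1.13, 1.042 and 0.475 against 8.83 and 8.52 (-2.38, adjusted p = 0.0117). Whichever brain tumor was left out, 0 of the 12 passed in the host (limma adjusted p 0.0551 to 0.0669 for Batf). Those fits called 1195 to 1518 of 15431 tested mouse genes. In the cancer cells 8 of the 12 were tested and 0 passed by limma, against 0.00693% of all tested human genes. At an unadjusted p under 0.05 there was 1, near the 10.5% of all tested human genes. The median was 0.60, opposite in sign to that of the 10 genes. MAFG and MAFK, small partner proteins without an activation domain, had 95.2, 105 and 113 against 38.9 and 113 RPKM and 40.0, 26.1 and 50.1 against 55.1 and 237, where the groups did not overlap for MAFK.

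Upstream kinases and the factors that act on these promoters, 22 genes, gave 0 called human genes by limma, with a median of 0.48. Of all tested human genes 0.00693% were called. At an unadjusted p under 0.05 there was 1 of the 22, below the 10.5% of all tested human genes. ELK3 and MAP2K2 were the most abundant, at 233, 230.2 and 242 against 167 and 173 RPKM and at 102, 115 and 109 against 224 and 99.8. In the host 6 of the 22 rose and 2 fell, with a median of 0.12. Of all tested mouse genes 14.3% rose and 8.12% fell, so the share of the list that fell was near the background. Elk3 fell, at 29.9, 18.8 and 7.58 RPKM against 84.6 and 111 (-2.50, limma adjusted p = 0.0308), and its relative Elk1 rose, at 17.8, 30.5 and 21.9 against 1.45 and 6.51 (2.47, adjusted p = 0.0319). The kinase genes Map2k4 and Rps6ka5 rose by 1.92 and 1.82 (limma adjusted p = 0.0136 and 0.0348). With any 1 brain tumor left out, 1195 to 1518 of 15431 tested mouse genes were called. Without brain tumor 1, 2 or 3 the list gave 0 that rose and 1, 0 and 0 that fell.

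Genes reported as AP-1 targets included many that fell in the host and 0 that passed in the cancer cells. In the host 14 of 18 genes in the table were tested, 8 fell and 0 rose, against 8.12% and 14.3% of all tested mouse genes, and the median log2 fold change was -2.90. Timp1, a protease inhibitor gene, had 43.3, 10.2 and 9.25 RPKM in the brain and 1302 and 147 in the lung tumors (-4.68, limma adjusted p = 0.0302), and Plaur, the urokinase receptor gene, had 7.74, 4.62 and 6.04 against 177 and 73.1 (-4.03, adjusted p = 0.00393). Mmp9, a matrix protease gene, fell by 4.03 on the log2 scale (limma adjusted p = 0.0192). With any 1 brain tumor left out, 1195 to 1518 of 15431 tested mouse genes were called. Plaur passed whichever of the 5 libraries was left out, while without brain tumor 1, 2 or 3 the list gave 2, 1 and 1 that fell. In the cancer cells 15 of 16 tested genes had a negative log2 fold change, against 44.4% of all tested human genes, with a median of -1.18. By limma 0 passed, against 0.00693% of all tested human genes. At an unadjusted p under 0.05 there were 7 of the 16, against 10.5%. The most abundant, TIMP1 and the cyclin gene CCND1, overlapped between the groups at 2974, 1277 and 675 against 3589 and 2049 RPKM and at 395, 341 and 298 against 332 and 632. Many of these targets also answer to other factors. Fibroblast, neutrophil and alveolar epithelium markers of the host were also lower in the brain tumors, as given above. The median of lung tumor 2 minus lung tumor 1 was -1.56 for the host targets and 0.30 for all tested mouse genes. It was 6.06 for the alveolar markers, -1.07 for the fibroblast and smooth muscle markers and -0.96 for the neutrophil markers. The part of the host markers was not tested.

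Heat shock genes were read as another group that stress induces. In the cancer cells 0 of 8 passed by limma, against 0.00693% of all tested human genes, and the median was -0.29. At an unadjusted p under 0.05 there were 2 of the 8, against 10.5% of all tested human genes. HSPA8 was at 1822, 1322 and 911 against 950 and 1572 RPKM, and HSPD1 at 551, 417 and 384 against 440 and 673. In the host 1 of 10 fell, Bag3, at 13.1, 8.86 and 14.0 against 42.8 and 26.6 RPKM (log2 fold change -1.45, limma adjusted p = 0.0490), and the median was -0.68. A count of 1 in 10 is near the 8.12% of all tested mouse genes that fell. Bag3 did not pass without brain tumor 1, 2 or 3 or without lung tumor 1 (adjusted p 0.0810 to 0.185). In the summed RPKM of the heat shock list the brain tumors, at 1821 to 3469 in human and 421 to 618 in mouse genes, overlapped with the lung tumors, at 2622 to 3384 and 573 to 590.

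**Figure D5:**
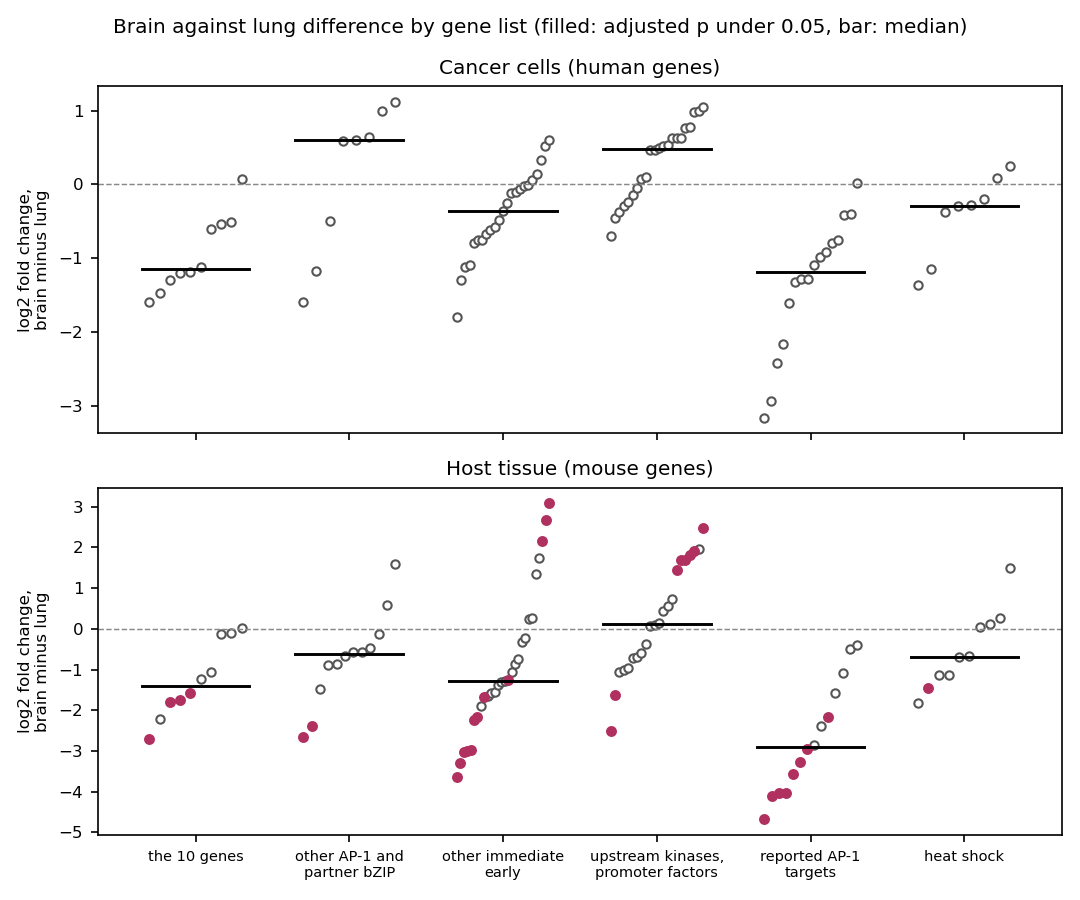
Log2 fold change, brain minus lung, of every tested gene in 6 lists, with human genes above and mouse genes below, 1 point per gene, filled where the limma adjusted p was under 0.05 and with a bar at the median. The 10 genes and the reported AP-1 targets lie mostly below 0 in both species. In these lists 0 human genes are filled, against 0.00693% called of all tested human genes. In the mouse panel 3 further immediate early genes and 6 upstream genes rose.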

How the data were processed

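RNA of 3 brain and 2 lung tumors was sequenced, and the authors deposited RPKM per gene, in 1 human and 1 mouse table. The submitters' processing notes name hg38 (GRCh38) and mm10 (GRCm38) as builds. The aligner, the gene lengths and the split of reads by species were not given in the sources used here. Columns were joined to samples by library number, with 0 columns left over. Whole reads were recovered from the RPKM, since 1 factor for each library turns the values of a gene into whole multiples of a common unit (100% of genes within 1e-06 reads, against 7.53% of 3000 human and 10.5% of 3000 mouse genes after a wrong factor on 1 library). They are known up to a common divisor.

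Genes with an RPKM of at least 1 in at least 2 libraries were fitted as log2(RPKM + 1) with limma 3.58.1 in R 4.3.3 (1 coefficient, brain minus lung, eBayes with an intensity trend, both directions), with Benjamini-Hochberg adjustment over all tested genes of a species and a threshold of 0.05. Log2 fold changes on this scale understate changes of low genes. The difference of responses was fitted likewise on per-library log2 ratios of same-symbol pairs, and Python 3.11.15 computed the summaries. The fits were also run on simulated data. These were drawn from a pooled profile with the same noise in every library. The real lung tumors differ more from each other, so that run cannot check the calls given here. An exact permutation of 3 against 2 libraries cannot reach the threshold and was not used.

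Named genes are the 10 in both species and, per further list, up to 4 called genes by largest change or, with 0 called, the 2 with the highest mean. The result of 1 gene is not reported here. The genes, lists and tests were chosen with earlier results of these data known. Positions are RefSeq's for GRCh38.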

Additional observations from a re-analysis of the deposited data

Results flagged for a closer look

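DUSP1 differed between cancer cells and host in its brain against lung response, by 2.18 on the log2 scale (SE 0.44, limma adjusted p = 0.0197 over 10189 same-symbol pairs). It was the only pair called of the 10, and 16.3% of all same-symbol pairs were called, so a count of 1 in 10 is not above that share. The human to mouse ratio was higher in all 3 brain tumors than in both lung tumors. The human gene itself had a log2 fold change of -0.51, with 27.7 and 100.3 RPKM in the lung tumors, and the mouse gene -2.69. Leaving out any 1 brain tumor put the adjusted p between 0.0539 and 0.0623. Host cell make-up differed between the organs, as the marker sums show, and its part in this difference was not tested.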

How the results depend on the processing

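The median log2 fold change of the 10 genes ranged from -1.35 to -0.73 (human) and from -1.50 to -0.86 (mouse) over 16 alternatives, and 0 human genes of the 10 passed in any of them. The mouse value nearest 0, -0.86, came without lung tumor 1. The number of mouse genes called was 3457 (63.8% of them higher in the brain tumors), 2295 with no filter (70.4% higher) and 1195 to 8275 with 1 library left out (54.0% to 84.7% higher). With voom 50.7% of called mouse genes were higher, and with quantile normalization 54.0%, so the excess of higher calls depends on the scaling. Mouse genes of the 10 called numbered 4, and 0 to 7 with 1 library left out. Besides the left-out libraries, Junb did not pass with no filter (adjusted p = 0.0525) or with the human read share as a covariate (0.0529). The 1 called human gene became 0 with that covariate, 0 with voom and 0 to 1905 with 1 library left out, the highest without lung tumor 2. Pairs called numbered 1665, and 414 to 3486 with 1 library left out, and of the 10 pairs 1, then 0 to 2. The median pair difference of 0.41 was -0.14 with the human read share and -0.13 to 0.80 with 1 library left out, lowest without lung tumor 1, so it has no stable sign. The median over all tested genes moved from 0.09 to -0.03 (human) and from 0.08 to 0.22 (mouse) with median-ratio scaling and to -0.11 (mouse) with quantile normalization.

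The labels give replicate numbers but no pairing of the samples. Deviations of same-numbered tumors correlated at -0.082 and 0.059 in human and 0.035 and 0.050 in mouse genes. The deviations of the 2 lung tumors mirror each other, so these correlations cannot tell whether samples were paired. No lung tumor shares the number of brain tumor 3, so with the replicate block that library does not bear on the log2 fold changes. The median of the 10 human genes was -1.19 with the block and -1.19 without brain tumor 3. The replicate block left 114 human genes (53.5% higher), 1484 mouse genes (77.1% higher), 1 mouse gene of the 10 (Dusp1) and a median pair difference of -0.035. It gave -1.19 for EGR1, 0.093 for Fosb, -0.27 for Nr4a1, and -1.02 and -0.42 for the EGR1 and JUN pairs.

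Other changes of sign all concerned values that did not pass the test. EGR1 was -0.056 with median-ratio scaling, -0.12 with quantile normalization, -0.28 with length correction, -0.71 with the human read share, -0.20 with voom and -1.19 to 0.99 with 1 library left out. Nr4a1 was -0.16 with quantile normalization, -0.28 with length correction, -0.48 with the human read share, -0.49 with voom and -0.85 to 0.88 with 1 library left out. Egr1 was 0.056 with median-ratio scaling and -0.29 to 0.096 with 1 library left out. With 1 library left out Fosb was -0.58 to 0.19, human DUSP1 -1.42 to 0.40 and human JUND -1.34 to 0.13. The EGR1 pair was -0.11 with median-ratio scaling, -0.48 with the human read share and -1.02 to 1.20 with 1 library left out. The JUN pair was -0.090 and the FOSL1 pair -0.19 with the human read share. With 1 library left out the pairs were -0.42 to 0.81 for JUN, -1.52 to 2.73 for FOSL1, -1.35 to 0.52 for ATF3, -0.78 to 0.17 for FOSB and -0.095 to 1.02 for JUNB. With a filter at an RPKM of 5, human FOSB, mouse Fosb and Fosl1 and their pairs had no value. Leave-one-out counts of the further lists were added after seeing the data. Lung tumor 1 had 231156 mouse reads, and 5 of the 10 mouse genes rest on under 25 reads there.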
